A study of Mus musculus with 8 samples.

Results

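The interferon-stimulated genes described here are 45 mouse genes that interferons are known to induce. Each is the entry of the deposited count table with that symbol, followed over all 4 groups of the study. All 45 symbols were found among the 24907 gene symbols of the table, and 35 of them had enough counts to be tested. RNA was sequenced from 8 libraries of ASZ001, an established mouse basal cell carcinoma line, in a study of the change from basal to squamous carcinoma. The cells carried either an shRNA that targets Tgfbr1, which encodes a TGF-beta receptor kinase (label TGFbR1kd, here the knockdown), or a non-silencing shRNA (NS, labelled control). They were given Dox-4OHT (Dox commonly stands for doxycycline and 4OHT for a hydroxytamoxifen) or DMSO, and each Dox-4OHT library carries the label RasV12, which names an activated Ras.

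The 4 groups hold 2 libraries each: knockdown cells under Dox-4OHT, knockdown cells under DMSO, NS cells under Dox-4OHT and NS cells under DMSO. No library had Dox-4OHT without RasV12, so the drugs and Ras cannot be told apart. The labels do not say whether the DMSO cells carried the same Ras construct, and they give no dose or time. All libraries came from 1 cell line with 1 shRNA label for Tgfbr1. No label states that both libraries of a group were grown separately, so the p-values reflect the spread between samples that may differ only technically. These are bulk libraries, in which fewer cells that express a gene and less RNA per cell cannot be told apart.

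Interferons act through cell surface receptors whose kinases, Jak1 and Tyk2 for type I interferon, activate STAT proteins. Type I and type III interferons lead to a complex with Stat2 and Irf9 that binds the interferon-stimulated response element (ISRE), and type II interferon leads mainly to STAT dimers that bind the gamma-activated site (GAS). The genes so induced sense foreign nucleic acids, block steps of viral growth, modify proteins with ISG15, or feed back on the pathway itself. Epithelial cells hold a low tonic level of many of these genes without infection.

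Promoter windows show what the members share in sequence. Windows of 300 bases, from 250 before to 50 after the annotated start (RefSeq, build GRCm38.p6), were available for 34 of the 45 members. The ISRE core was searched as GAAA, any 2 bases and GAAA, on either strand, and it was present in 16 of 34 members (47.1%), against 3.99% of the 27025 genes with a window. The GAS core was searched as TTCNNNGAA, which reads the same on both strands, and it was present in 8 of 34 members (23.5%), against 9.55% of all genes. The windows of 4 members are shown because the members differ in what they hold and in how they changed in knockdown cells under DMSO: Isg15 and Ifit1 were lower, Gbp2 did not pass the test and Irf1 was higher. Capitals mark the ISRE core in the windows of Isg15 (chr4:156200769-156201068, minus strand), Ifit1 (chr19:34640639-34640938, plus strand) and Gbp2 (chr3:142620413-142620712, plus strand). In the window of Irf1 (chr11:53769764-53770063, plus strand) they mark the GAS core.
Isg15: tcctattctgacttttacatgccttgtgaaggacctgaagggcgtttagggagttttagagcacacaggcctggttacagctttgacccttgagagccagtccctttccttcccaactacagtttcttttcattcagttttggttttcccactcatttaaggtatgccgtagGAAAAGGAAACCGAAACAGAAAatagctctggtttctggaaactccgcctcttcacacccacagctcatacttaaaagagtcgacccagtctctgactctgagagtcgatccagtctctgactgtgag
Ifit1: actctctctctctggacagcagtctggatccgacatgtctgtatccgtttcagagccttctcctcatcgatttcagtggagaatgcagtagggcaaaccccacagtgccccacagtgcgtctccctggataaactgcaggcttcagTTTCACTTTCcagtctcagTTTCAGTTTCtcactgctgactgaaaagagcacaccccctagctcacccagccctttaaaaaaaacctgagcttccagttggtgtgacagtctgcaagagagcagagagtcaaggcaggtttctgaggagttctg
Gbp2: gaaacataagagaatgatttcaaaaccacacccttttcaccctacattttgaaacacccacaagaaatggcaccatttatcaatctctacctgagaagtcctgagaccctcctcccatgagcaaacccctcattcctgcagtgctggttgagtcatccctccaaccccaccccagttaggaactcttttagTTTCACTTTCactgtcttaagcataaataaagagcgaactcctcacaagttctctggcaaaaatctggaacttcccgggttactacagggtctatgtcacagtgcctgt
Irf1: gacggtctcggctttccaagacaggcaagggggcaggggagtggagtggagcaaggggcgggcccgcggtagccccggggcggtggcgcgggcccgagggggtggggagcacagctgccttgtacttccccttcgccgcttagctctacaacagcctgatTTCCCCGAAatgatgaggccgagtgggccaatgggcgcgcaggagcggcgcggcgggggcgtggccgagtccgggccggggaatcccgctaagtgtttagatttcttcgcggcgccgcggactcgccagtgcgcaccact

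The window of Isg15 holds 3 overlapping ISRE cores, of which the one farthest upstream starts 78 bases before the transcript start. Ifit1 holds 2 cores, Gbp2 holds 1, and the window of Irf1 holds no ISRE core by these letters. The ISRE core was present in 10 of the 20 members with a window that were lower in knockdown cells under DMSO, in 5 of the 8 tested members that were not lower and in 1 of the 6 that were not tested. The GAS core was present in 5, 3 and 0 members of these sets, in the same order. A match describes letters in a window, not binding of a factor.

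Library totals ran from 12724325.5 to 16233011 counts. Tgfbr1, the targeted gene, had 8.86 and 9.42 CPM (the count scaled to a common library size) in knockdown Dox-4OHT, 10.2 and 8.08 in knockdown DMSO, 104 and 91.6 in NS Dox-4OHT and 77.1 and 80.4 in NS DMSO libraries, in keeping with the labels. The epithelial markers Krt5, Krt14, Krt17, Trp63, Cdh1, Epcam, Ptch1 and Gli1 summed to 12800 to 13300 CPM in knockdown Dox-4OHT, 16900 to 17900 in knockdown DMSO, 13600 to 14000 in NS Dox-4OHT and 28500 to 28900 in NS DMSO libraries. Most of this sum was Krt5, Krt14 and Krt17, with means of 13200, 8460 and 5930 CPM in NS DMSO libraries. The means of these keratins and of Gli1 were lower in knockdown DMSO than in NS DMSO libraries. Those of Trp63, Cdh1, Epcam and Ptch1 were higher. Of 12 immune cell markers, 5 (Cd3e, Adgre1, Siglech and Ncr1 among them) were at 0 in every library and 11 stayed under 5 CPM. Their summed level, most of it Cd68, ran from 17.7 to 18.0 CPM in knockdown Dox-4OHT, 5.65 to 5.73 in knockdown DMSO, 7.47 to 7.99 in NS Dox-4OHT and 8.27 to 9.52 in NS DMSO libraries. The 8 endothelial and fibroblast markers, of which 7 stayed under 5 CPM and Col3a1 was at 0, summed to 32.5 to 34.7 CPM in knockdown Dox-4OHT, 28.6 to 30.8 in knockdown DMSO, 26.6 to 27.2 in NS Dox-4OHT and 40.1 to 40.7 in NS DMSO libraries. Most of this last sum was Pecam1, at 22.4 to 37 CPM over the libraries. Among the immune markers, Csf1r had 2.22 and 3.05 CPM in knockdown Dox-4OHT and 1.15 and 0.843 in knockdown DMSO libraries. In NS libraries Csf1r had 0.0386 and 0.0366 CPM under Dox-4OHT and 0.56 and 0.426 under DMSO. The part of these markers in the results below was not tested.

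The members were expressed at low to moderate levels. Per kilobase of the entry length given in the table, Ifitm3, which blocks the entry of viruses through endosomes, had the highest mean in NS DMSO libraries, at 90.3 CPM per kilobase. Ifi27, Ifi35, Bst2, Ddx58, Eif2ak2, Adar, Irf9 and Xaf1 followed, between 11.1 and 24.8 CPM per kilobase. The 10 members not tested were Zbp1, Oas1g, Oas2, Oasl1, Oasl2, Mx1, Uba7, Trim25, Rtp4 and Sp100, and the highest of them was Rtp4 at 0.444 CPM per kilobase. The filter asked for about 0.722 CPM in at least 2 libraries. Of the 35 members tested, 22 reached that level in both libraries of all 4 groups, and 5 (Dhx58, Oas1a, Oas1b, Cmpk2 and Ifi44) reached it in both libraries of NS DMSO alone, so that these 5 entered the test through that group.

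Summed over the 45 members, the level was 506 and 498 CPM in knockdown Dox-4OHT, 375 and 376 in knockdown DMSO, 390 and 505 in NS Dox-4OHT and 551 and 534 in NS DMSO libraries. The NS DMSO libraries stood highest and the knockdown DMSO libraries lowest, with no overlap with any other group. The NS Dox-4OHT libraries lay far apart from each other. The map of the tested members by library shows that this sum hides genes that moved in opposite ways.

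**Figure D1:**
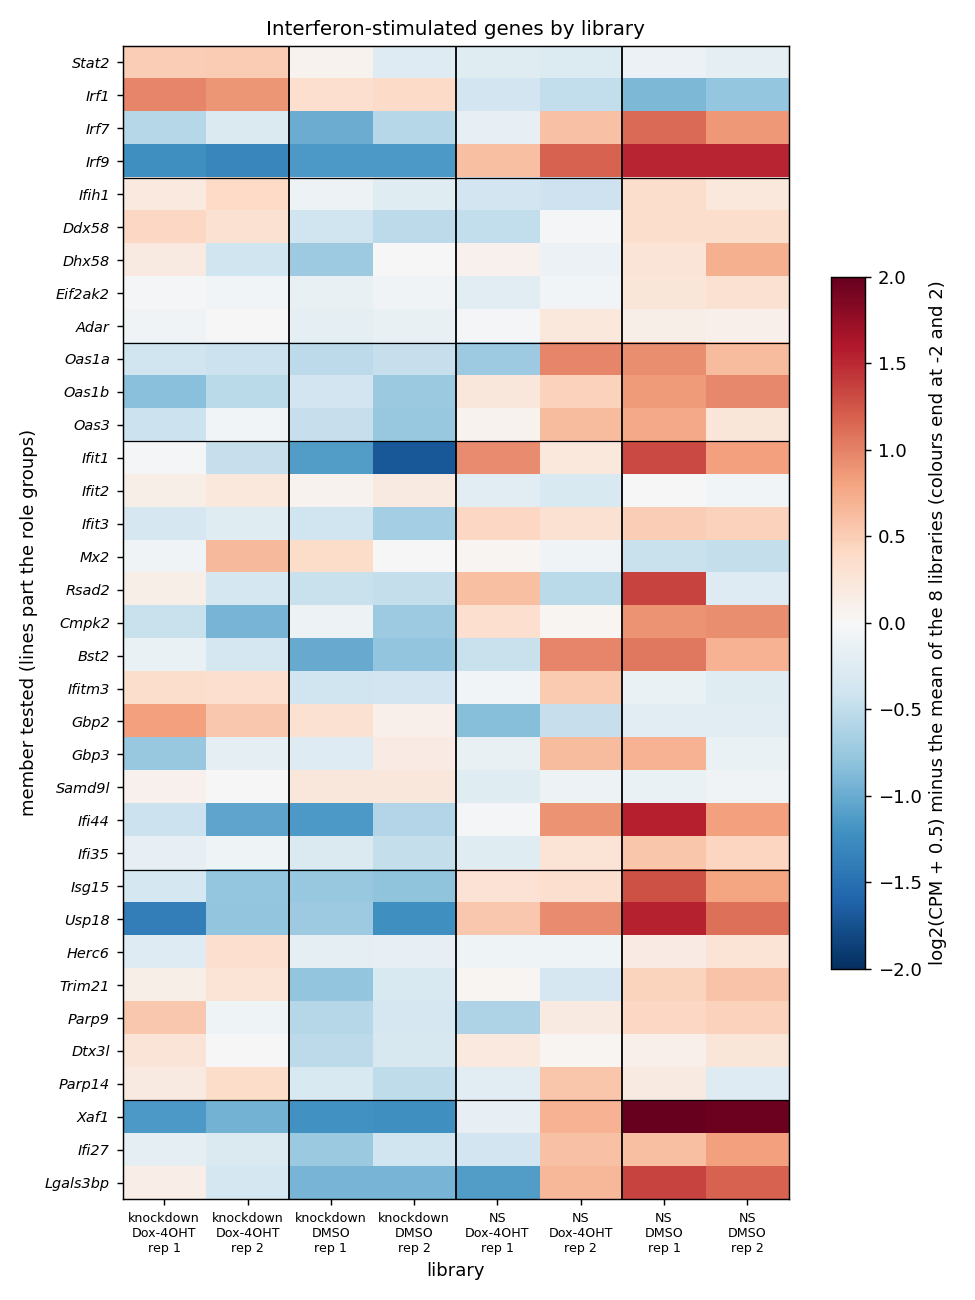
Each row is 1 of the 35 tested members and each column 1 library, from knockdown Dox-4OHT on the left to NS DMSO on the right; colour is log2(CPM + 0.5) minus the member's mean over the 8 libraries. Irf9, Xaf1, Usp18 and Isg15 are highest in both NS DMSO libraries, Irf1 and Gbp2 are highest in both knockdown Dox-4OHT libraries, and many rows differ between the 2 NS Dox-4OHT libraries.

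In DMSO, knockdown cells held less RNA of most members than NS cells. Of the 35 tested, 25 were lower at an adjusted p under 0.05, against 31.0% of all 12538 genes tested, and 3 were higher (Irf1, Mx2 and Samd9l), against 30.9% of all genes. All adjusted p-values come from the two-sided quasi-likelihood test of edgeR, adjusted by Benjamini-Hochberg across the genes tested, unless DESeq2 is named. The median log2 change, knockdown over NS, was -1.30 for the tested members and 0.00 for all genes. Members ran from -3.78 (Ifi44, on 0 and 3.5 counts in knockdown DMSO libraries) to 1.22 (Irf1). A fall of at least 2-fold that passed the test was seen in 17 members, against 6.58% of all genes, and such a rise in 1 (Irf1), against 4.12%. The 5 members that entered the test through NS DMSO alone (Dhx58, Oas1a, Oas1b, Cmpk2 and Ifi44) are all among these 17, and the filter favoured a fall in them. Oas3, also among the 17, reached the filter level only in NS DMSO replicate 1 (0.933 CPM) and NS Dox-4OHT replicate 2 (0.806 CPM). The filter thus favoured a fall in Oas3 too. At an unadjusted p under 0.05 the counts were 25 lower and 4 higher. Since the filter can favour genes that are high in 1 group, the direction was also counted over every listed member: the mean CPM was lower in knockdown cells for 38 of 45 and higher for 7, while of the 17577 genes with any count 49.1% were lower and 46.5% higher. Among the 27 tested members with a mean of at least 1 CPM over all libraries, 19 were lower and 3 higher. Among the 22 that reached the filter level in both libraries of all 4 groups, 15 were lower. No share of all genes was computed within these cuts or at an unadjusted p under 0.05.

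In Dox-4OHT, the same contrast was divided. Of the 35 tested members, 10 were lower in knockdown than in NS cells, against 29.7% of all genes, and 7 were higher, against 30.5%. The share of lower members is close to that of all genes. Falls of at least 2-fold that passed the test were seen in 8 members, against 4.67% of all genes. Rises of that size were seen in 2 (Irf1 and Gbp2), against 5.61%. Oas1b, Cmpk2 and Ifi44, which entered the test through NS DMSO alone, are among the 8. They held 2.5, 3 and 5.5 counts, summed over the knockdown Dox-4OHT libraries. The calls of Ifit1, Cmpk2 and Ifi44 were lost in some alternatives. The median log2 change was -0.13 for members and -0.01 for all genes. The members lower under both treatments were Irf7, Irf9, Oas1b, Ifit1, Ifit3, Cmpk2, Ifi44, Isg15, Usp18 and Xaf1. Irf1 and Samd9l were higher under both, and Ifih1 and Ddx58 were lower in DMSO and higher in Dox-4OHT. The direction in Dox-4OHT rests on which NS library is used. The median of members was -0.40 without NS Dox-4OHT replicate 1 and 0.13 without its replicate 2. The plot of the knockdown effect sets the 2 treatments side by side.

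**Figure D2:**
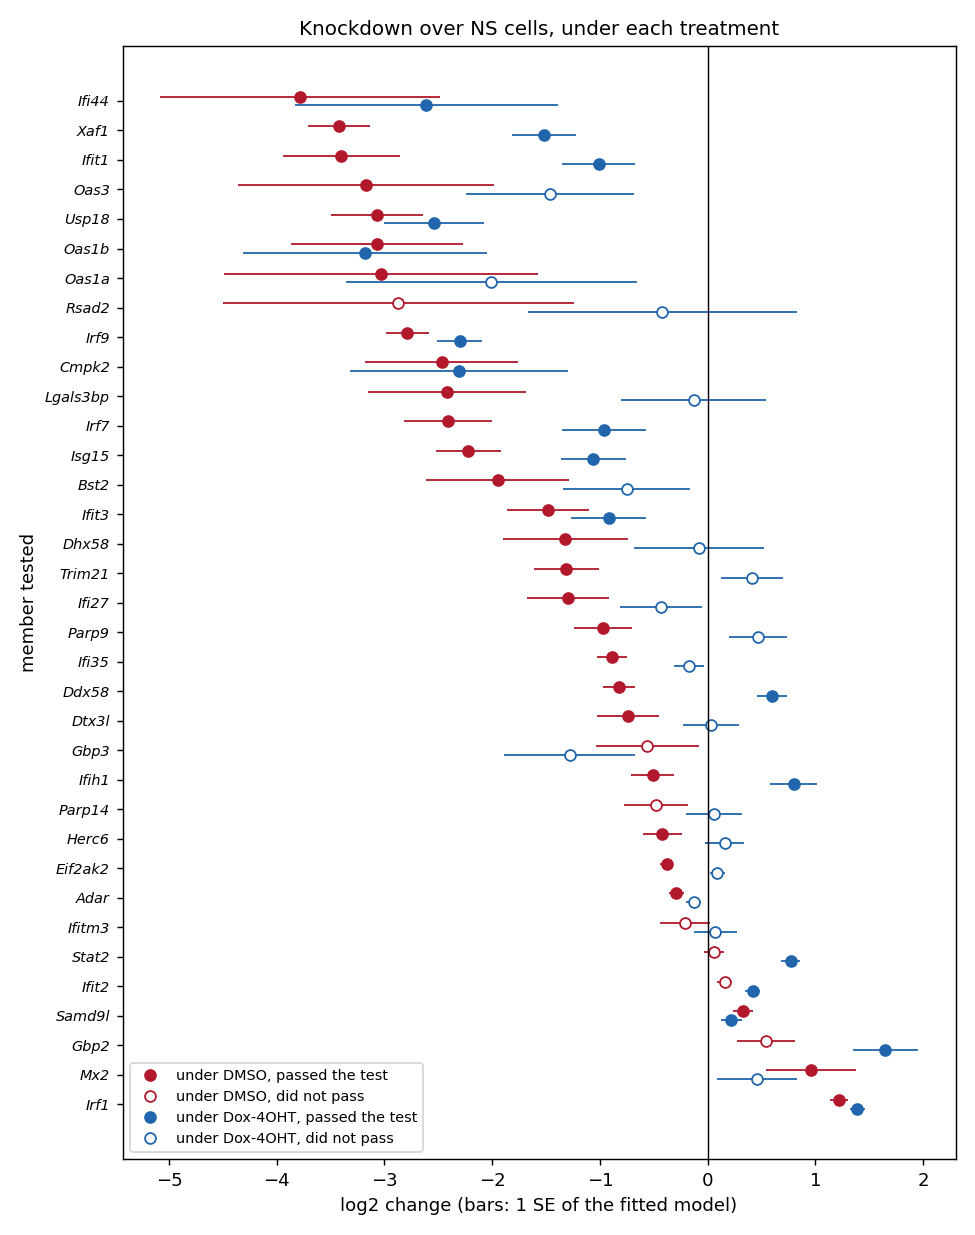
Log2 change of knockdown over NS cells for each tested member, under DMSO (red) and Dox-4OHT (blue), with bars of 1 standard error of the fitted model and filled points for changes that passed the test. Xaf1, Usp18 and Irf9 lie left of 0 under both treatments and Irf1 right of it, while Ddx58 and Ifih1 lie on opposite sides. The fitted values of Oas1a, Oas1b, Oas3 and Cmpk2 rest on 1 to 3 counts in a knockdown group, and that of Ifi44 in DMSO on 0 and 3.5 counts. These values depend on the prior count of the fit.

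Among the transcription factors, Irf9, the DNA-binding part of the complex with Stat2, had 4.1 and 3.87 CPM in knockdown Dox-4OHT, 4.35 and 4.36 in knockdown DMSO, 15.8 and 23.8 in NS Dox-4OHT and 30.3 in both NS DMSO libraries. Every knockdown library was below every NS library. The log2 change, knockdown over NS, was -2.79 ± 0.20 (SE) in DMSO, with an edgeR adjusted p of 2.45e-09, and -2.30 ± 0.21 in Dox-4OHT. Stat2, the partner of Irf9, did not share this fall, with 34.0 and 34.5 CPM in knockdown Dox-4OHT, 25.4 and 20.1 in knockdown DMSO, 20.4 and 19.8 in NS Dox-4OHT and 22.2 and 21.2 in NS DMSO libraries. It stood apart in knockdown Dox-4OHT only, at 0.77 ± 0.09 over NS Dox-4OHT (adjusted p 3.2e-08), while the DMSO groups overlapped.

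Irf7, which drives the interferon genes themselves, had 0.782 and 1.06 CPM in knockdown Dox-4OHT, 0.458 and 0.773 in knockdown DMSO, 1.2 and 2.34 in NS Dox-4OHT and 3.67 and 2.95 in NS DMSO libraries. The groups did not overlap, and the change was -2.41 ± 0.41 in DMSO (adjusted p 1.32e-06). In Dox-4OHT it was -0.96 ± 0.39, a call that was lost without NS Dox-4OHT replicate 2 (-0.41, adjusted p 0.494) or knockdown Dox-4OHT replicate 1 (-0.71, adjusted p 0.207), and in DESeq2 (adjusted p 0.183). Irf1, a factor best known as an early target of type II interferon, went the other way from Irf9 and Irf7. Its libraries had 60.3 and 56.5 CPM in knockdown Dox-4OHT, 38.6 and 39.8 in knockdown DMSO, 23.2 and 21.5 in NS Dox-4OHT and 16.1 and 17.7 in NS DMSO. No groups overlapped, and knockdown was higher by 1.22 ± 0.08 in DMSO (adjusted p 3.35e-13) and by 1.39 ± 0.07 in Dox-4OHT (adjusted p 2.74e-15). The window of Irf1 shown above is the one with a GAS core, 90 bases before the start.

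All 5 tested sensors and double-stranded RNA proteins were lower in knockdown cells under DMSO, against 31.0% of all genes. Ddx58, the RNA sensor RIG-I, had 78.2 and 72.1 CPM in knockdown Dox-4OHT, 44.4 and 40.5 in knockdown DMSO, 41.6 and 57.2 in NS Dox-4OHT and 74.7 and 75.0 in NS DMSO libraries. High values thus stood in the knockdown cells given Dox-4OHT and in the NS cells given DMSO. The knockdown change was -0.82 ± 0.15 in DMSO (adjusted p 0.00412) and 0.60 ± 0.14 in Dox-4OHT (adjusted p 0.0136), and the second was lost without knockdown Dox-4OHT replicate 1 (adjusted p 0.0611) and when only the libraries compared were fitted (adjusted p 0.0801). Ifih1, the related sensor MDA5, had 4.1 and 4.81 CPM in knockdown Dox-4OHT, 3.25 and 2.92 in knockdown DMSO, 2.59 and 2.53 in NS Dox-4OHT and 4.63 and 4.16 in NS DMSO libraries. It showed the same crossing, at -0.51 ± 0.20 in DMSO (adjusted p 0.0292) and 0.80 ± 0.22 in Dox-4OHT (adjusted p 0.00197). The DMSO call of Ifih1 was lost without NS DMSO replicate 1, knockdown DMSO replicate 1 or knockdown DMSO replicate 2, with adjusted p of 0.182, 0.0643 and 0.144, and in DESeq2 (adjusted p 0.243).

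Eif2ak2, the kinase PKR that stops translation when it binds double-stranded RNA, had 42.3 and 41.6 CPM in knockdown Dox-4OHT, 39.0 and 41.1 in knockdown DMSO, 37.1 and 41.5 in NS Dox-4OHT and 51.1 and 53.1 in NS DMSO libraries. The NS DMSO libraries stood above the rest, and the knockdown change in DMSO was -0.38 ± 0.06 (adjusted p 1.41e-05). Adar, which edits adenosines in double-stranded RNA, had 62.3 and 66.2 CPM in knockdown Dox-4OHT, 57.3 and 59.2 in knockdown DMSO, 64 and 76.4 in NS Dox-4OHT and 71.6 and 70.8 in NS DMSO libraries. Its DMSO groups did not overlap, with a change of -0.29 ± 0.07 in DMSO (adjusted p 0.000607). Dhx58, the regulator LGP2, was at or under 1.17 CPM in every library, and its DMSO call (-1.32 ± 0.58, adjusted p 0.0368) was lost without NS DMSO replicate 2 (adjusted p 0.221) or knockdown DMSO replicate 1 (-0.70, adjusted p 0.327) and in DESeq2 (adjusted p 0.226). Without knockdown DMSO replicate 2 its value was -2.53. Zbp1, a sensor of Z-form nucleic acids, had at most 2 counts in any library.

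The oligoadenylate synthetases make the messenger that switches on RNase L, and 3 of 7 could be tested. Oas1a and Oas1b entered the test through NS DMSO alone and Oas3 through NS libraries alone, so the filter favoured a fall in these 3. Oas1b, the flavivirus resistance gene of the mouse, had 0.5 and 2 counts in knockdown Dox-4OHT, 3 and 1 in knockdown DMSO, 8 and 11 in NS Dox-4OHT and 19.5 and 19 in NS DMSO libraries. Every knockdown library was below every NS library. The DMSO change of -3.07 ± 0.80, which rests on 3 and 1 knockdown counts, passed the test (adjusted p 8.41e-05), as did that in Dox-4OHT (adjusted p 0.00156). Without knockdown DMSO replicate 2 the DMSO value was -2.45, and without replicate 1 the 1 count left there gives no usable fold. Likewise, without knockdown Dox-4OHT replicate 1 the Dox-4OHT call came near the threshold (adjusted p 0.049). Oas3 had 2 and 4 counts in knockdown Dox-4OHT, 1.5 and 0 in knockdown DMSO, 5 and 11 in NS Dox-4OHT and 15 and 7 in NS DMSO libraries. Oas1a had 2 and 1.5 counts in knockdown Dox-4OHT, 1 and 1.5 in knockdown DMSO, 0 and 15.5 in NS Dox-4OHT and 17.5 and 11 in NS DMSO libraries. Both passed in DMSO, Oas3 with an adjusted p of 0.00216 and Oas1a with 0.0319, and no fold is given on so few counts. Without NS DMSO replicate 1 the adjusted p was 0.0506 for Oas3 and 0.145 for Oas1a. Without knockdown DMSO replicate 2 it was 0.0526 for Oas3 and 0.13 for Oas1a, and Oas1a was also lost without NS DMSO replicate 2 (0.0604) or knockdown DMSO replicate 1 (0.158). Oas1a shares 57.6% of its transcript's 50-base stretches with other genes, nearly all with Oas1g, so the counts of that pair are uncertain.

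The antiviral effectors were divided, with 6 of 13 tested lower and 2 higher in knockdown cells under DMSO, against 31.0% and 30.9% of all genes. Ifit1, which binds foreign RNA caps and whose window with 2 ISRE cores is shown above, had 1.89 and 1.25 CPM in knockdown Dox-4OHT, 0.611 and 0.246 in knockdown DMSO, 4.17 and 2.31 in NS Dox-4OHT and 5.57 and 3.77 in NS DMSO libraries. Knockdown libraries were below NS libraries throughout, with log2 changes of -3.40 ± 0.54 in DMSO (adjusted p 4.72e-07) and -1.01 ± 0.34 in Dox-4OHT (adjusted p 0.0131). Without knockdown DMSO replicate 1 the DMSO value was -4.02. The Dox-4OHT call was lost without NS Dox-4OHT replicate 1 (-0.55, adjusted p 0.238), without knockdown Dox-4OHT replicate 2 (-0.77, adjusted p 0.102) and in DESeq2 (adjusted p 0.0666). Ifit2, of the same family, had 37.2 and 39.9 CPM in knockdown Dox-4OHT, 35.9 and 39 in knockdown DMSO, 29.6 and 27.6 in NS Dox-4OHT and 34.1 and 33.2 in NS DMSO libraries. Its change of 0.16 ± 0.07 in DMSO did not pass (adjusted p 0.0567), and that of 0.42 ± 0.07 in Dox-4OHT did (adjusted p 1.81e-05). Ifit3 was lower under both treatments, at -1.48 ± 0.38 in DMSO and -0.92 ± 0.35 in Dox-4OHT, but the Dox-4OHT call was lost when any of the 4 libraries compared was left out, with adjusted p from 0.0513 to 0.119, and in DESeq2 (0.212). It shares 51.2% of its 50-base stretches with its near copy Ifit3b.

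Ifi35 had 17.9 and 19.0 CPM in knockdown Dox-4OHT, 16.3 and 14.4 in knockdown DMSO, 16.9 and 24.3 in NS Dox-4OHT and 29.8 and 27.4 in NS DMSO libraries, and was lower at -0.89 ± 0.14 in DMSO (adjusted p 5.07e-05). Cmpk2, a nucleotide kinase of mitochondria, had 3 and 0 counts in knockdown Dox-4OHT, 5 and 1 in knockdown DMSO, 9 and 6.5 in NS Dox-4OHT and 20.5 and 18.5 in NS DMSO libraries. It passed in DMSO (-2.47 ± 0.71, adjusted p 0.000625), with -1.69 without knockdown DMSO replicate 2, while without its replicate 1 only 1 count was left there. Its Dox-4OHT call (adjusted p 0.0192) was lost without NS Dox-4OHT replicate 1 (0.128) or knockdown Dox-4OHT replicate 2 (0.156) and in DESeq2 (0.095). Ifi44 had 5 and 0.5 counts in knockdown Dox-4OHT, 0 and 3.5 in knockdown DMSO, 7.5 and 21.5 in NS Dox-4OHT and 44.5 and 20.5 in NS DMSO libraries. It was lower at -3.78 ± 1.30 in DMSO (adjusted p 0.00397), or -3.19 without NS DMSO replicate 1 and -2.86 without knockdown DMSO replicate 1, while without its replicate 2 the knockdown library left had 0 counts. Its Dox-4OHT call (-2.61 ± 1.22, adjusted p 0.0448) was lost without NS Dox-4OHT replicate 2 (-1.74, adjusted p 0.236) or knockdown Dox-4OHT replicate 2 (-1.76, adjusted p 0.106), with the replicate block (0.0923) and in DESeq2 (0.159), and without knockdown Dox-4OHT replicate 1 only 0.5 counts were left. Bst2, the tetherin that holds budding viruses on the cell, had 5.37 and 4.57 CPM in knockdown Dox-4OHT, 2.71 and 3.23 in knockdown DMSO, 4.25 and 12.3 in NS Dox-4OHT and 13 and 10 in NS DMSO libraries. Its DMSO call (-1.95 ± 0.66, adjusted p 0.0469) was lost without any 1 of the 4 DMSO libraries or the 2 knockdown Dox-4OHT libraries, with adjusted p from 0.0901 to 0.176, with the replicate block (0.0827) and with no filter on low counts (0.0719).

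The effectors that were not lower were Mx2, Samd9l, Gbp2, Ifit2, Ifitm3, Gbp3 and Rsad2. Gbp2, a guanylate-binding GTPase whose window holds 1 ISRE core, had 4.2 and 3.36 CPM in knockdown Dox-4OHT, 2.79 and 2.35 in knockdown DMSO, 0.965 and 1.43 in NS Dox-4OHT and 1.77 and 1.78 in NS DMSO libraries. Each knockdown library was above each NS library, by 1.65 ± 0.30 in Dox-4OHT (adjusted p 9.74e-06), while 0.54 ± 0.27 in DMSO did not pass (adjusted p 0.0825). Samd9l, a restriction factor of poxviruses, had 18.6 and 17.7 CPM in knockdown Dox-4OHT, 20.5 and 20.5 in knockdown DMSO, 14.8 and 16.3 in NS Dox-4OHT and 16 and 16.7 in NS DMSO libraries. It was higher by 0.33 ± 0.09 in DMSO (adjusted p 0.00322), where DESeq2 gave 0.0729. In Dox-4OHT its 0.22 ± 0.10 lay at the threshold (adjusted p 0.05 as rounded) and was lost in 7 of the 8 fits that left out 1 library, the exception being the one without NS Dox-4OHT replicate 2, with adjusted p from 0.0504 to 0.256. Mx2, a dynamin-like GTPase, had 1.11 and 2.15 CPM in knockdown Dox-4OHT, 1.68 and 1.19 in knockdown DMSO, 1.24 and 1.1 in NS Dox-4OHT and 0.746 and 0.711 in NS DMSO libraries. Its rise in DMSO (0.96 ± 0.42, adjusted p 0.0414) was lost without NS DMSO replicate 1 (0.113), NS DMSO replicate 2 (0.118) or knockdown DMSO replicate 1 (0.24), and in DESeq2 (0.209). Rsad2, Ifitm3 and Gbp3 passed the test in none of the 5 comparisons run. Rsad2, the antiviral enzyme viperin, had 0.521 and 0.234 CPM in knockdown Dox-4OHT, 0.191 and 0.176 in knockdown DMSO, 0.926 and 0.146 in NS Dox-4OHT and 1.9 and 0.284 in NS DMSO libraries, so that both NS groups held 1 high and 1 low library.

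ISG15 is a ubiquitin-like protein that is attached to others. Of the 7 tested members of its set and of the linked ubiquitin and ADP-ribose modifiers, 6 were lower in knockdown cells under DMSO, against 31.0% of all genes. Isg15 had 1.69 and 1.13 CPM in knockdown Dox-4OHT, 1.15 and 1.09 in knockdown DMSO, 2.89 and 3.0 in NS Dox-4OHT and 6.25 and 4.33 in NS DMSO libraries. Knockdown libraries lay below NS libraries, with log2 changes of -2.22 ± 0.30 in DMSO (adjusted p 5.4e-08) and -1.06 ± 0.30 in Dox-4OHT (adjusted p 0.00277). Usp18, which removes ISG15 and also restrains the type I receptor, had 0.326 and 0.742 CPM in knockdown Dox-4OHT, 0.802 and 0.422 in knockdown DMSO, 2.62 and 3.63 in NS Dox-4OHT and 5.78 and 4.09 in NS DMSO libraries. It was lower at -3.07 ± 0.43 in DMSO (adjusted p 1.46e-08) and -2.54 ± 0.46 in Dox-4OHT (adjusted p 2.82e-06; -3.24 without knockdown Dox-4OHT replicate 2), with no overlap.

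Trim21, an intracellular antibody receptor and ubiquitin ligase, had 2.22 and 2.54 CPM in knockdown Dox-4OHT, 0.955 and 1.55 in knockdown DMSO, 2.08 and 1.5 in NS Dox-4OHT and 2.92 and 3.23 in NS DMSO libraries. It was lower at -1.31 ± 0.30 in DMSO (adjusted p 0.000309), and 0.41 ± 0.29 in Dox-4OHT did not pass. Parp9, which works in a complex with the ubiquitin ligase Dtx3l, had 7.33 and 4.61 CPM in knockdown Dox-4OHT, 3.13 and 3.76 in knockdown DMSO, 3.01 and 5.64 in NS Dox-4OHT and 6.72 and 6.96 in NS DMSO libraries. Its DMSO change of -0.97 ± 0.27 (adjusted p 0.00633) was lost only without knockdown DMSO replicate 1 among the 8 fits that left out a library (adjusted p 0.0772). Dtx3l was lower in DMSO at -0.74 ± 0.29 and Herc6, the ligase that attaches ISG15 in mice, at -0.42 ± 0.18. The Dtx3l call was lost without NS DMSO replicate 2 (adjusted p 0.121), knockdown DMSO replicate 1 (0.134) or replicate 2 (0.0501). The Herc6 call was lost without any of the 4 DMSO or 2 NS Dox-4OHT libraries, with adjusted p from 0.0555 to 0.187, and DESeq2 called neither Dtx3l (0.189) nor Herc6 (0.239). Parp14, at -0.48 ± 0.30, did not pass.

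Of the remaining members, Xaf1, which binds an inhibitor of apoptosis, had the clearest pattern. It had 2.8 and 3.28 CPM in knockdown Dox-4OHT, 2.67 and 2.64 in knockdown DMSO, 6.02 and 11.3 in NS Dox-4OHT and 29.4 and 28.0 in NS DMSO libraries. The NS DMSO libraries stood far above all others and the knockdown libraries below all NS libraries, with log2 changes of -3.42 ± 0.29 in DMSO (adjusted p 1.52e-07) and -1.52 ± 0.30 in Dox-4OHT (adjusted p 0.000742). Lgals3bp, a secreted protein that binds galectins, had 5.18 and 3.56 CPM in knockdown Dox-4OHT, 2.22 and 2.21 in knockdown DMSO, 1.89 and 7.73 in NS Dox-4OHT and 12.7 and 11.2 in NS DMSO libraries. Ifi27, a small hydrophobic protein, had 13.6 and 12.7 CPM in knockdown Dox-4OHT, 9.17 and 11.7 in knockdown DMSO, 11.8 and 23.6 in NS Dox-4OHT and 23.8 and 27.9 in NS DMSO libraries. Both were lower in DMSO, Lgals3bp at -2.42 ± 0.73 (adjusted p 0.0295) and Ifi27 at -1.30 ± 0.38 (adjusted p 0.0366). Both calls were lost without any 1 of the 4 DMSO or 2 knockdown Dox-4OHT libraries, with adjusted p from 0.0585 to 0.128 for Lgals3bp and from 0.0755 to 0.152 for Ifi27. The adjusted p of Lgals3bp was 0.0613 with the replicate block, and that of Ifi27 was 0.0583 with no filter on low counts.

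The 10 members that were not tested held at most 11.5 counts in any library. Oasl2 had 4.5 and 3 counts in knockdown Dox-4OHT, 1 and 0 in knockdown DMSO, 3.5 and 6.5 in NS Dox-4OHT and 9 and 11.5 in NS DMSO libraries. Rtp4, a chaperone of receptors with antiviral action, had 4.5 and 5 counts in knockdown Dox-4OHT, 2 and 2 in knockdown DMSO, 5.5 and 10 in NS Dox-4OHT and 11 and 10 in NS DMSO libraries. Both had their lowest counts in the knockdown DMSO libraries. With no filter on low counts, both were lower in knockdown cells under DMSO, with an edgeR adjusted p of 0.000686 for Oasl2 and 0.0128 for Rtp4. In that fit 26 of 45 members were lower and 4 higher in DMSO, against 22.6% and 24.2% of all genes.

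**Figure D3:**
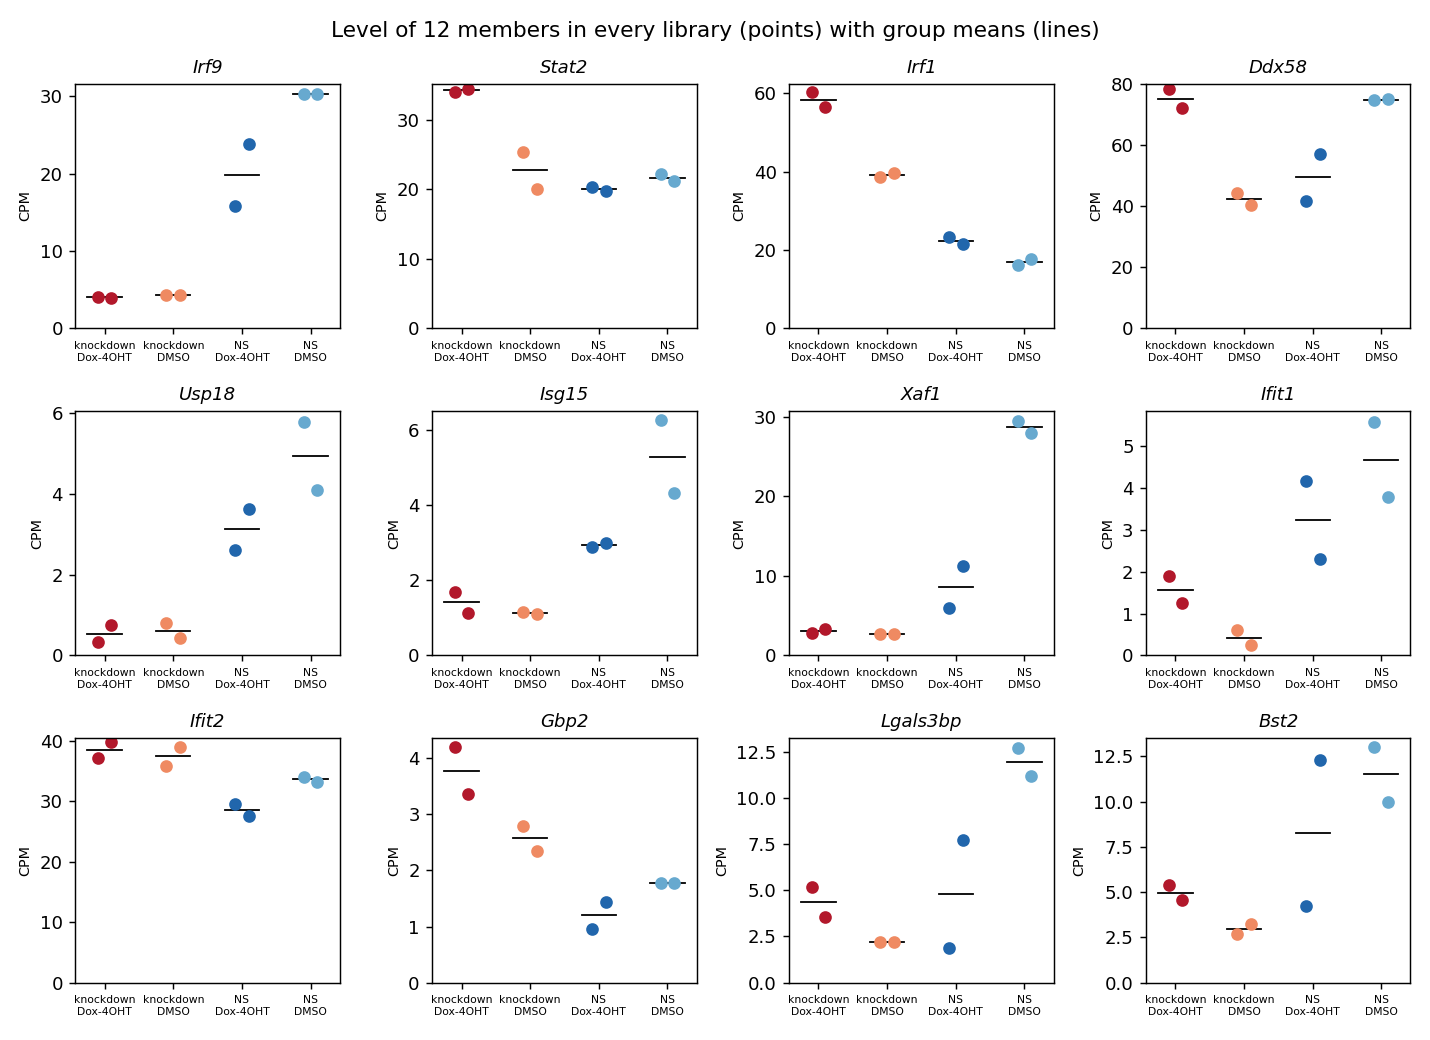
CPM of 12 members in every library (points) with group means (lines), for knockdown Dox-4OHT, knockdown DMSO, NS Dox-4OHT and NS DMSO from left to right. Irf9, Usp18 and Xaf1 are low in all 4 knockdown libraries, Irf1 and Gbp2 are high in them, Ddx58 is high in the outer groups, and the NS Dox-4OHT points of Lgals3bp and Bst2 lie far apart.

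Members that passed the test for Dox-4OHT over DMSO were mostly higher in knockdown cells and mostly lower in NS cells, and 3 (Ifih1, Ddx58 and Trim21) passed in both with opposite signs. In knockdown cells 9 of the 35 tested members were higher with Dox-4OHT than with DMSO, against 19.5% of all genes, and none was lower, against 16.6%. The share of higher members, 25.7%, is near that of all genes. In NS cells 11 were lower, against 21.3% of all genes, and 1 (Irf1) was higher, against 20.8%. The median log2 change, Dox-4OHT over DMSO, was 0.43 in knockdown cells and -0.54 in NS cells, with 0.00 for all genes in both. Over all 45 members the mean was higher with Dox-4OHT for 34 and lower for 8 in knockdown cells, against 47.2% and 46.5% of genes with any count. In NS cells it was lower for 38 and higher for 7, against 47.9% and 47.5%. At an unadjusted p under 0.05 the knockdown count was 11 higher and 0 lower. DESeq2 called 5 higher and 0 lower in knockdown cells, against 12% and 7.89% of all genes.

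The 9 members higher with Dox-4OHT in knockdown cells were Stat2, Irf1, Ifih1, Ddx58, Ifit1, Trim21, Parp9, Dtx3l and Parp14, and they ran from 0.53 (Ifih1) to 1.84 ± 0.59 (Ifit1, adjusted p 0.00958). Stat2 rose by 0.60 ± 0.09 (adjusted p 4.46e-06) and Irf1 by 0.58 ± 0.07 (adjusted p 6e-08), and only these 2 calls held in every alternative run. Fewer members, and a smaller share of all genes, were called higher without any 1 of the 4 knockdown libraries, with member medians from 0.47 to 0.57. Ifit1 was lost without knockdown DMSO replicate 2 (adjusted p 0.13) or knockdown Dox-4OHT replicate 1 (0.117), and was 2.46 without knockdown DMSO replicate 1. Ddx58 (0.83 ± 0.15) was lost without knockdown DMSO replicate 2 (0.0745). Trim21 (0.91 ± 0.32) was lost without knockdown DMSO replicate 1 (0.223) or either knockdown Dox-4OHT library (0.0537 and 0.106), and Parp14 (0.80 ± 0.29) without any of the 4 knockdown libraries (0.0637 to 0.183). Ifih1, Parp9 and Dtx3l were each lost in at least 5 of the 8 fits that left out a library, with adjusted p up to 0.222, 0.345 and 0.283.

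In NS cells the 11 members lower with Dox-4OHT were Irf7, Irf9, Ifih1, Ddx58, Eif2ak2, Ifit2, Ifi35, Isg15, Usp18, Trim21 and Xaf1. Xaf1 had the largest fall, a log2 change of -1.72 ± 0.19 (adjusted p 1.53e-05), Irf9 had -0.61 ± 0.13 (adjusted p 0.00136) and Eif2ak2 -0.41 ± 0.07 (adjusted p 1.19e-05). These 3 and the rise of Irf1 (0.41 ± 0.09, adjusted p 0.000564) held in every alternative run. DESeq2 called 5 lower, against 12.1% of all genes. Without NS DMSO replicate 1 fewer members, and a smaller share of all genes, were called lower, with a member median of -0.39. That DMSO library ended the calls of Irf7 (adjusted p 0.134), Ifih1 (0.0513), Ddx58 (0.115), Ifit2 (0.0993), Ifi35 (0.0964), Isg15 (0.138) and Usp18 (0.358). Leaving out NS DMSO replicate 2 ended those of Ddx58 (0.104) and Trim21 (0.0925), NS Dox-4OHT replicate 1 those of Irf7 (0.21), Ifi35 (0.0862) and Usp18 (0.224), and NS Dox-4OHT replicate 2 those of Ifit2 (0.14) and Trim21 (0.184). Ddx58 was also just past the threshold without either knockdown DMSO library (0.0506 and 0.0505) and with the replicate block (0.0598).

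**Figure D4:**
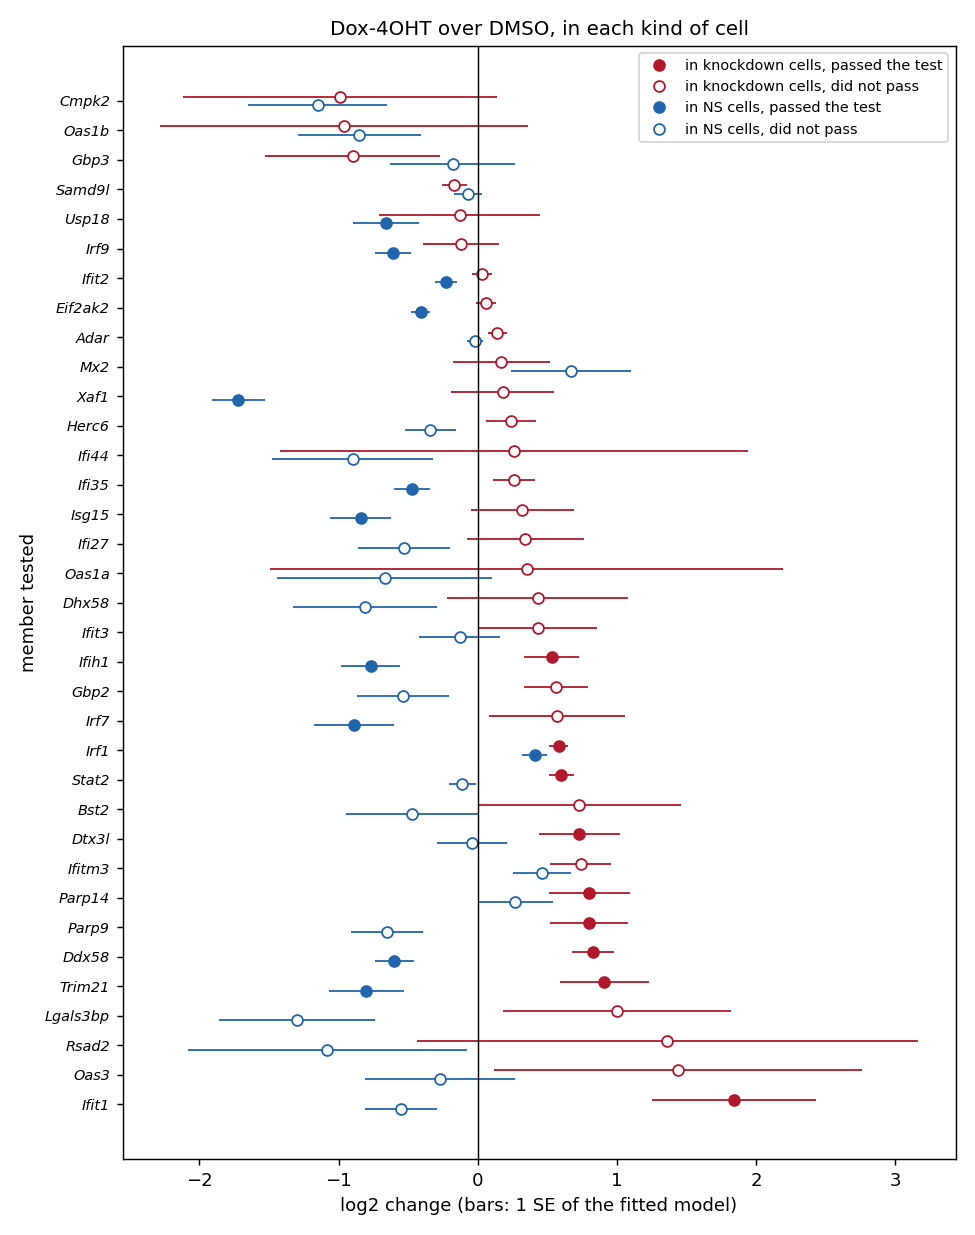
Log2 change of Dox-4OHT over DMSO for each tested member, in knockdown cells (red) and in NS cells (blue), with bars of 1 standard error of the fitted model and filled points for changes that passed the test. Ddx58, Ifih1 and Trim21 are filled on both sides of 0, Xaf1 is lowest in NS cells at -1.72, and Irf1 is filled to the right in both.

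The difference between these responses was tested as an interaction, the Dox-4OHT response in knockdown cells minus that in NS cells. It was positive and passed in 13 of the 35 tested members, against 20.2% of all genes, and negative in none, against 18.0%. At an unadjusted p under 0.05 the counts were 14 and 0. In DESeq2 they were 9 and 0 of the 25 members with an adjusted p, against 13.3% and 10.1% of all genes. The median was 0.77 for members and 0.02 for all genes, and 9 members reached at least 2-fold with a call, against 3.53% of all genes. Ifit1 had the largest value that passed, 2.39 ± 0.64 (adjusted p 0.00307), followed by Xaf1 at 1.90 ± 0.42 (adjusted p 0.00433) and Trim21 at 1.71 ± 0.42 (adjusted p 0.00147). Irf9, with a response of -0.12 ± 0.27 in knockdown cells, had 0.49 ± 0.30 and did not pass (adjusted p 0.216). The comparisons share libraries, so that a high NS DMSO value enters the knockdown effect in DMSO, the Dox-4OHT response of NS cells and the interaction alike: 10 of the 13 were also lower in knockdown cells under DMSO. The calls of Stat2, Ifih1, Ddx58, Eif2ak2, Ifit1, Trim21 and Xaf1 held in every alternative run, with Ifit1 at 3.01 without knockdown DMSO replicate 1. More members passed without NS Dox-4OHT replicate 2, where the median was 1.03 for members and 0.012 for all genes.

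The other 6 interaction calls were lost when some libraries were left out, and those of Irf7, Ifit2, Gbp2 and Isg15 also in DESeq2 (adjusted p 0.181, 0.237, 0.205 and 0.18). Parp9 was lost without knockdown DMSO replicate 1 (1.31, adjusted p 0.0551), and Ifi35 without NS DMSO replicate 1 (0.65, adjusted p 0.0511) or knockdown DMSO replicate 2 (0.64, adjusted p 0.0779). Irf7 was lost without NS DMSO replicate 1, knockdown DMSO replicate 1, NS Dox-4OHT replicate 1 or knockdown Dox-4OHT replicate 2 (values 1.07 to 1.28, adjusted p 0.111 to 0.177). Ifit2 was lost without either NS DMSO library, knockdown DMSO replicate 1, NS Dox-4OHT replicate 2 or knockdown Dox-4OHT replicate 2 (values 0.20 to 0.28, adjusted p 0.0678 to 0.175). Gbp2 was lost without either NS DMSO library, knockdown DMSO replicate 2, NS Dox-4OHT replicate 1 or knockdown Dox-4OHT replicate 1 (values 0.82 to 1.11, adjusted p 0.0694 to 0.15). Isg15 was lost without NS DMSO replicate 1, either knockdown DMSO library, either NS Dox-4OHT library or knockdown Dox-4OHT replicate 1 (values 0.79 to 1.17, adjusted p 0.0538 to 0.29).

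The libraries of NS Dox-4OHT were less alike on the members than those of the other groups. Replicate 2 exceeded replicate 1 by over 1.5-fold, on log2(CPM + 0.5), in 11 of 35 tested members, against 0.981% of all genes tested, and the median log2 ratio was 0.25, against 0.00. In the other groups 0 to 3 members passed that size in either direction. The largest ratio was that of Lgals3bp, with 1.89 and 7.73 CPM, followed by Oas1a and by Bst2, with 4.25 and 12.3 CPM. Rsad2 and Ifit1 went the other way. Where the group mean reached 5 CPM or more, 4 of 14 members exceeded 1.5-fold in replicate 2, against 0.108% of 10204 genes. The counts of the 2 libraries, over all genes tested, differed beyond sampling noise in every group, with chi-square over its degrees of freedom of 2.65 in knockdown Dox-4OHT, 8.11 in knockdown DMSO, 13.0 in NS Dox-4OHT and 2.33 in NS DMSO libraries. This ratio includes the ribosomal entry Rn45s and was not computed without it, so it is no measure of the members. Rn45s had 116596 and 375305.5 counts in NS Dox-4OHT and 49889.5 and 192348.5 in knockdown DMSO libraries. The share of the ribosomal entry Rn45s was 0.916% and 2.76% of counts in these NS Dox-4OHT libraries and ran from 0.388% to 2.57% in the others. Its part in the difference was not tested.

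**Figure D5:**
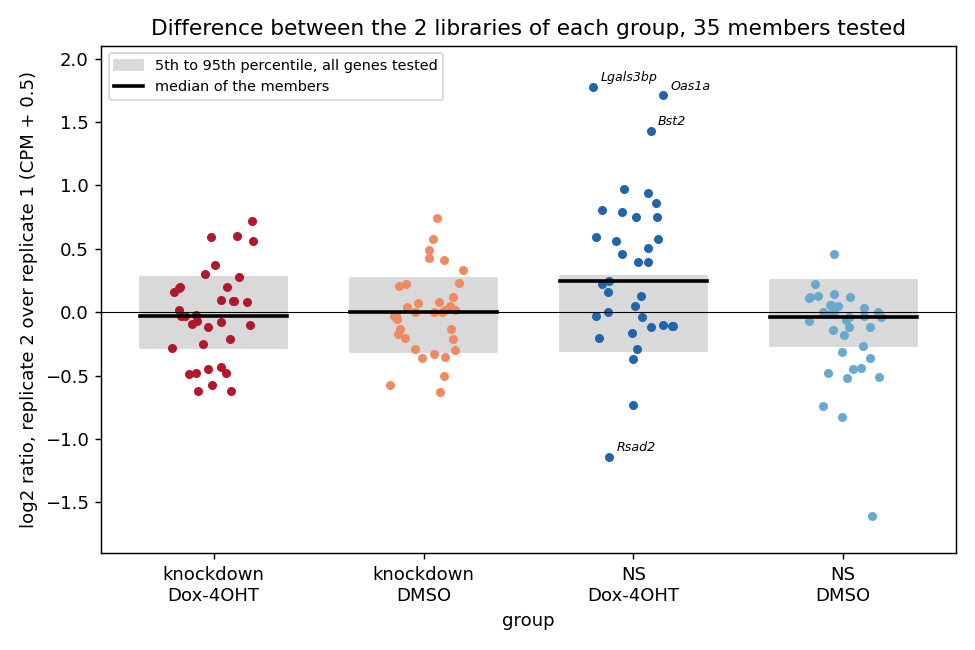
Log2 ratio of replicate 2 over replicate 1 for each tested member (points) in each group, on log2(CPM + 0.5), with the members' median (line) and the 5th to 95th percentile of all genes tested (grey). The NS Dox-4OHT points reach 1.78 (Lgals3bp) and their median is 0.25, while the medians of the other groups lie between -0.04 and 0.00.

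Other genes of the pathway were taken from lists by role. For scale, 30.9% of all genes were higher and 31.0% lower in knockdown cells under DMSO. The 10 interferon genes listed were not tested for lack of counts: Ifnb1 had at most 3 counts in any library, Ifne and Ifnk at most 1, and the alpha, gamma and lambda genes listed had 0 in every library. Of 9 receptor chains and their kinases, 6 were higher in knockdown cells under DMSO and the other 3 did not pass. Jak1 had 199 and 197 CPM in knockdown Dox-4OHT, 197 and 195 in knockdown DMSO, 154 and 153 in NS Dox-4OHT and 158 and 160 in NS DMSO libraries (0.30 ± 0.04 in DMSO, adjusted p 8.65e-08). Il10rb, a receptor chain of type III interferon, changed by 0.60 ± 0.08 and Ifngr1, of type II interferon, by 0.51 ± 0.10. Of 9 other STAT and IRF factors tested, 4 were higher and 3 lower in DMSO. Stat3, which answers many cytokines, changed by 0.46 ± 0.05 and Irf3, which switches on the interferon genes, by -0.44 ± 0.08.

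Of 9 tested genes of sensing upstream of interferon, 4 were higher and 3 lower in knockdown cells under DMSO. Ikbke, a kinase that activates interferon regulatory factors, had 10.7 and 10.4 CPM in knockdown Dox-4OHT, 7.45 and 6.92 in knockdown DMSO, 0.386 and 0.513 in NS Dox-4OHT and 0.28 and 0.462 in NS DMSO libraries. All knockdown libraries were far above all NS libraries, by 4.40 ± 0.44 in DMSO (adjusted p 3.22e-13) and 4.52 ± 0.40 in Dox-4OHT (adjusted p 1.68e-14). Mb21d1, the DNA sensor cGAS, changed by 0.64 ± 0.09 in DMSO and the ubiquitin ligase Trim56 by -0.65 ± 0.10. Of 8 genes that restrain the pathway, 3 were higher and 3 lower in DMSO. Socs1, an inhibitor of the Jak kinases, had 13.6 and 13.5 CPM in knockdown Dox-4OHT, 12.1 and 12.1 in knockdown DMSO, 7.76 and 8.06 in NS Dox-4OHT and 6.03 and 5.26 in NS DMSO libraries. It was higher in knockdown cells by 1.09 ± 0.13 in DMSO (adjusted p 5.46e-08). The phosphatase Ptpn11 changed by 0.32 ± 0.03 and Ptpn1, which acts on Jak kinases, by -0.19 ± 0.04. The DMSO calls of the named pathway genes held in every alternative run.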

How the data were processed

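RNA was measured in 8 libraries (4 groups of 2), and the authors deposited estimated counts per gene, one column per library, made with TopHat and HOMER at the isoform level on mouse build mm9, with DESeq2 also named, per the submitters' processing notes. The design had assumed whole counts. The deposited values are multiples of 0.5 (70.9% whole), so they were rounded for the tests and used unrounded for levels. The strand setting and the handling of reads with several matches have no statement in these sources, so antisense and near-identical genes may share counts. Of 24909 entries, 24907 symbols were kept, with 2 duplicates dropped, and 0 columns were unused.

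Genes passing the default filterByExpr of edgeR 4.0.16 in R 4.3.3 (12538) were scaled by TMM and fitted over all 8 libraries with group means (robust glmQLFit, 4 residual degrees of freedom). The 5 contrasts were tested two-sided with glmQLFTest, with Benjamini-Hochberg adjustment over the 12538 genes and a threshold of 0.05. The fit was tested on simulated data with known changes. CPM used the TMM factors, and errors of log2 changes are standard errors of the fit. DESeq2 1.42.0, RLE scaling, no filter, unrounded counts, a replicate block, leaving out Rn45s, only the libraries compared and leaving out each library were the alternatives.

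The members and lists were chosen with earlier results of these data known. All 45 members are named; values of every library are given for the members with the 3 smallest p of each role group, those called against the main direction and those called for the interaction, with a few others for context. Other pathway genes are the 3 with the smallest p of each list, except that 1 gene is not reported here. Promoter windows are RefSeq's (GRCm38.p6), and the files give no coordinates. Shared 50-base stretches were counted in the transcripts of GENCODE vM21. Library totals set the precision: 1 count is under 0.1 CPM in every library.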

Additional observations from a re-analysis of the deposited data

Results flagged for a closer look

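The response to Dox-4OHT differed between knockdown and NS cells in 13 members by edgeR's interaction test, which compares the responses directly. The value given for each is the log2 response in knockdown cells minus that in NS cells, and each is positive. Among the factors and sensors it was 0.71 for Stat2, 1.45 for Irf7, 1.30 for Ifih1, 1.42 for Ddx58 and 0.47 for Eif2ak2. Among the antiviral effectors it was 2.39 for Ifit1, 0.27 for Ifit2, 1.11 for Gbp2 and 0.73 for Ifi35. Among the ISG15 set and the others it was 1.16 for Isg15, 1.71 for Trim21, 1.45 for Parp9 and 1.90 for Xaf1. In Ifih1, Ddx58 and Trim21 the response passed the test upward in knockdown cells and downward in NS cells. Stat2, Ifit1 and Parp9 passed upward in knockdown cells only, and Irf7, Eif2ak2, Ifit2, Ifi35, Isg15 and Xaf1 passed downward in NS cells only. Gbp2 passed in neither kind of cell alone. The groups hold 2 libraries, so no library could be set against the rest of its group as an outlier.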

How the results depend on the processing

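RLE scaling, unrounded counts, leaving out Rn45s, the absence of a filter and the fit of only the libraries compared kept each count of members called within 1.5 times of the reported one. The summed levels with RLE were 504 CPM in knockdown Dox-4OHT, 375 in knockdown DMSO, 447 in NS Dox-4OHT and 542 in NS DMSO libraries. DESeq2 called fewer. For knockdown over NS cells under DMSO it called 23 members lower, against 20.4% of all genes. It gave an adjusted p for 39 members in that comparison, 33 for Dox-4OHT in knockdown cells and 25 for the interaction. It gave 1 member higher in knockdown cells under DMSO, 5 lower under Dox-4OHT, 5 lower with Dox-4OHT in NS cells and 5 higher with Dox-4OHT in knockdown cells. Of all genes it called 21%, 18.6%, 12.1% and 12% in these comparisons and directions, in the same order. Over all genes it called 3100 for Dox-4OHT in NS cells, against 5281 with edgeR, 2476 against 4531 in knockdown cells and 2694 against 4791 for the interaction. The cause was not tested. The main fit did not pair libraries by replicate number. Same-numbered libraries of different groups deviated with correlations of -0.039 to 0.057 over all genes tested and -0.212 to 0.26 over the tested members. Such correlations cannot show whether same-numbered libraries were prepared together. With the replicate block the members called were 3 higher and 24 lower in knockdown cells under DMSO, 6 higher and 9 lower under Dox-4OHT, 1 higher and 11 lower with Dox-4OHT in NS cells, 7 higher in knockdown cells and 13 for the interaction. The shares of all genes in that fit were, in the same order, 31.1%, 31%, 30.5%, 29.7%, 21%, 21.4%, 19.6% and 20.3%.

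With 1 library left out at a time, members lower in knockdown cells ran from 18 to 28 under DMSO and from 7 to 16 under Dox-4OHT. With Dox-4OHT, NS cells had 4 to 14 members lower and 1 to 2 higher, knockdown cells had 3 to 13 higher, and the interaction passed in 9 to 19. Calls held in every alternative that gave a value for 16 of 28 members in knockdown against NS cells under DMSO, 10 of 17 under Dox-4OHT, 4 of 12 for Dox-4OHT in NS cells, 2 of 9 in knockdown cells and 7 of 13 for the interaction.

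Some log2 changes that were not called changed sign when 1 library was left out, the cause of which was not tested. For knockdown over NS under Dox-4OHT, Adar ran from -0.25 to 0.01, Bst2 from -1.31 to 0.23, Ifitm3 from -0.19 to 0.41, Ifi35 from -0.40 to 0.13, Herc6 from -0.17 to 0.48, Ifi27 from -0.83 to 0.17 and Lgals3bp from -0.79 to 1.27. For Dox-4OHT over DMSO in NS cells, Rsad2 ran from -2.86 to 0.87 and Bst2 from -1.45 to 0.09. In knockdown cells Herc6 ran from -0.09 to 0.55. The fitted values of Oas1a ran from -2.97 to 4.09 for knockdown over NS under Dox-4OHT and from -6.77 to 0.29 for Dox-4OHT over DMSO in NS cells. The 4.09 and the -6.77 come from the fit without NS Dox-4OHT replicate 2, which leaves a library with 0 counts of Oas1a, so neither is a usable fold. Depth limits the synthetases, Cmpk2, Ifi44 and the 10 members not tested, which hold few counts. With 2 libraries a group, a p that misses the threshold does not show that levels were alike.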
